A study of Mus musculus with 4 samples.

Results

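The mitochondrial ribosomal protein genes were followed in mouse embryonic stem cells (ESCs) that lack Naa10, the catalytic subunit of the N-terminal acetyltransferase NatA. Members were all rows of the deposited tables with a gene symbol made of Mrpl or Mrps and a number, and 77 of the 14099 named rows met this rule, 48 with an Mrpl and 29 with an Mrps symbol. The rule used symbols alone, but the set was chosen with earlier results of these data known. Polyadenylated RNA was sequenced in 2 Naa10-KO libraries and 2 wild-type (WT) libraries. The Naa10-KO cells were F1 hybrids of C57BL/6 and JF1, a strain far from C57BL/6, made by mating females of C57BL/6 background with the genotype Naa10-/X to WT males of JF1. The WT cells were ESCs of littermates from the same cross. Both genotypes came from the inner cell mass of blastocysts and were grown in N2B27 medium containing LIF and blockers of Mek and Gsk3, through 5 passages on irradiated fibroblast feeders and 5 without. Each table gives RPKM, a read number divided by transcript length and by library depth, so that levels can be set side by side between genes. The libraries are called biological replicates, but whether they came from separate lines, clones or cultures is not stated, so the p-values below cover the spread between the 4 libraries and no more.

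The mitochondrial ribosome translates the few messenger RNAs encoded by mitochondrial DNA, which specify core subunits of the respiratory chain and of ATP synthase. Its RNA comes from mitochondrial DNA, but all its proteins are encoded in the nucleus, made on cytosolic ribosomes and imported. The large subunit holds the peptidyl transferase centre and the exit tunnel, and the small subunit holds the decoding site. Many of the proteins descend from bacterial ribosomal proteins and others are found only in mitochondria. Their promoters are known for sites of NRF1 and of ETS factors such as GABPA, and YY1 also acts on promoters of nuclear genes for mitochondrial proteins.

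The promoters of 68 of the 77 genes were matched in the RefSeq promoter table (GRCm38.p6), and 5 upstream sequences are shown because the results below return to their genes. Each line of 200 bases ends at the base before the annotated start and is read on the strand of the gene. Mrpl10 at chr11:97041382-97041581 (plus strand) and Mrpl12 at chr11:120484437-120484636 (plus strand) encode partners in the ribosomal stalk, and capitals mark a match to the NRF1 motif, read on the minus strand, that begins 135 bases before the start of Mrpl10 and 80 bases before that of Mrpl12. Mrps30 at chr13:118387253-118387452 (minus strand) and Mrpl28 at chr17:26123303-26123502 (plus strand) had the smallest unadjusted p-values among members that were higher and lower in Naa10-KO. Neither shows a match to the 3 motifs searched. The last line is the whole stretch of 41 bases between the starts of Mrpl46 and Mrps11, at chr7:78783090-78783130, read on the minus strand, the strand of Mrpl46. It carries no match either.
Mrpl10: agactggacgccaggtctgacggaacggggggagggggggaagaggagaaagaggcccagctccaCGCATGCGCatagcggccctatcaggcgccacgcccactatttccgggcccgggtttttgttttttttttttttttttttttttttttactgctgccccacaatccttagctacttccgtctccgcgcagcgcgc
Mrpl12: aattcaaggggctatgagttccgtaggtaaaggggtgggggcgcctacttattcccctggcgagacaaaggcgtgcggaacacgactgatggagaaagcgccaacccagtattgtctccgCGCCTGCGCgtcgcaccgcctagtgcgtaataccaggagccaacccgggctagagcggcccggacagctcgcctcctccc
Mrps30: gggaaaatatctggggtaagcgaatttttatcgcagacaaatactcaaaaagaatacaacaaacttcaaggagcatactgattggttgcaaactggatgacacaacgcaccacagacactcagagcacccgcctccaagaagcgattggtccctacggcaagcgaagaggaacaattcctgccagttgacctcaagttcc
Mrpl28: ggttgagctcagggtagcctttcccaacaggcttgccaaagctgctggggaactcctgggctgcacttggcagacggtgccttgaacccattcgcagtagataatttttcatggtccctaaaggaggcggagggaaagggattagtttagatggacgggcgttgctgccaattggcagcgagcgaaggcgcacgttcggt
Mrpl46-Mrps11: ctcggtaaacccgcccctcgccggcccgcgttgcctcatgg

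Over all members the motifs were found as follows, on either strand and with each window of 300 bases (250 before and 50 after the start) counted once however many matches it held. The NRF1 motif, searched as GCGCANGCG, was in 21.6% of the 74 windows of members, against 6.25% of all promoters in the table and 13.2% of promoters of tested genes. The ETS motif CCGGAAG was in 33.8% of windows of members, against 8.86% of all promoters and 17.2% of promoters of tested genes. The YY1 motif AAGATGGC was in 16.2% of windows of members, against 2.75% and 4.44%. At least 1 of the 3 was in 58.1% of windows of members, against 16.0% of all promoters and 30.6% of promoters of tested genes. A match is a string of letters and not a measured site. The 16 genes with an NRF1 match, Mrpl10 and Mrpl12 among them, had a median log2 difference of 0.08 between Naa10-KO and WT, and the 52 without one had -0.05. For ETS the medians were -0.007 over the 25 genes with a match and -0.035 over the 43 without. For YY1 they were -0.052 over the 12 genes with a match and -0.011 over the 56 without. No test was made of these splits. Mrpl30, which was lower in both Naa10-KO libraries, also carries NRF1 matches.

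All 77 genes were measured at 1 RPKM or more in at least 2 libraries and so entered the test. Their median level over the genes was 37.5 RPKM in Naa10-KO and 34.8 RPKM in WT, when each gene's 2 libraries are averaged, against 9.78 RPKM in Naa10-KO and 10.2 RPKM in WT over all 11912 tested rows. By subunit, the median level of the Mrpl genes was 40.4 RPKM in Naa10-KO and 37.9 RPKM in WT, and that of the Mrps genes 34.7 RPKM in Naa10-KO and 32.7 RPKM in WT. The genes lie on 17 chromosomes, none on the X chromosome that carries Naa10. The levels spread widely for proteins of a single particle. In WT, 4 genes lay under 10 RPKM, 8 between 10 and 20, 39 between 20 and 50, 22 between 50 and 100 and 4 above 100. Within one library the highest value was 26.6 and 29.9 times the lowest listed above 0 in the Naa10-KO libraries, and 31.0 and 34.8 times in the WT libraries.

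Mrpl42, a mitochondria-specific protein of the large subunit, stood highest in WT, with 165 and 217 RPKM in the Naa10-KO libraries and 214 and 209 RPKM in the WT libraries. Only Naa10-KO replicate 1 stood apart from the others there. Mrpl52, another mitochondria-specific large-subunit protein, had 138 and 161 RPKM in Naa10-KO and 136 and 129 RPKM in WT, so Naa10-KO was the higher group with no overlap, replicate 1 by a small margin. Mrpl23, the counterpart of the bacterial protein L23 at the tunnel exit, had 95.4 and 113 RPKM in Naa10-KO and 121 and 116 RPKM in WT, and both Naa10-KO libraries were lower. A pseudogene named after Mrpl23 is annotated, so reads may be shared and its level is uncertain. The order of these 3 genes was the same in all 4 libraries.

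The lowest levels belonged to Mrpl41, Mrpl19 and Mrps25. Mrpl41, a mitochondria-specific protein of the large subunit, had 6.26 and 7.26 RPKM in Naa10-KO and 6.92 and 6.03 RPKM in WT, and the groups overlapped. Mrpl19, the counterpart of bacterial L19, had 10.7 and 8.18 RPKM in Naa10-KO and 8.36 and 8.60 RPKM in WT, with 1 Naa10-KO library above and the other below both WT libraries. Mrps25 had 7.78 and 8.25 RPKM in Naa10-KO and 8.93 and 9.10 RPKM in WT, lower in both Naa10-KO libraries (limma log2 difference -0.15, SE 0.10, adjusted p = 0.423). Mrpl19 and Mrps25 were neighbours in this order and did not differ beyond their spread in Naa10-KO. In a plot of all levels by library, the points of most genes nearly coincide.

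**Figure D1:**
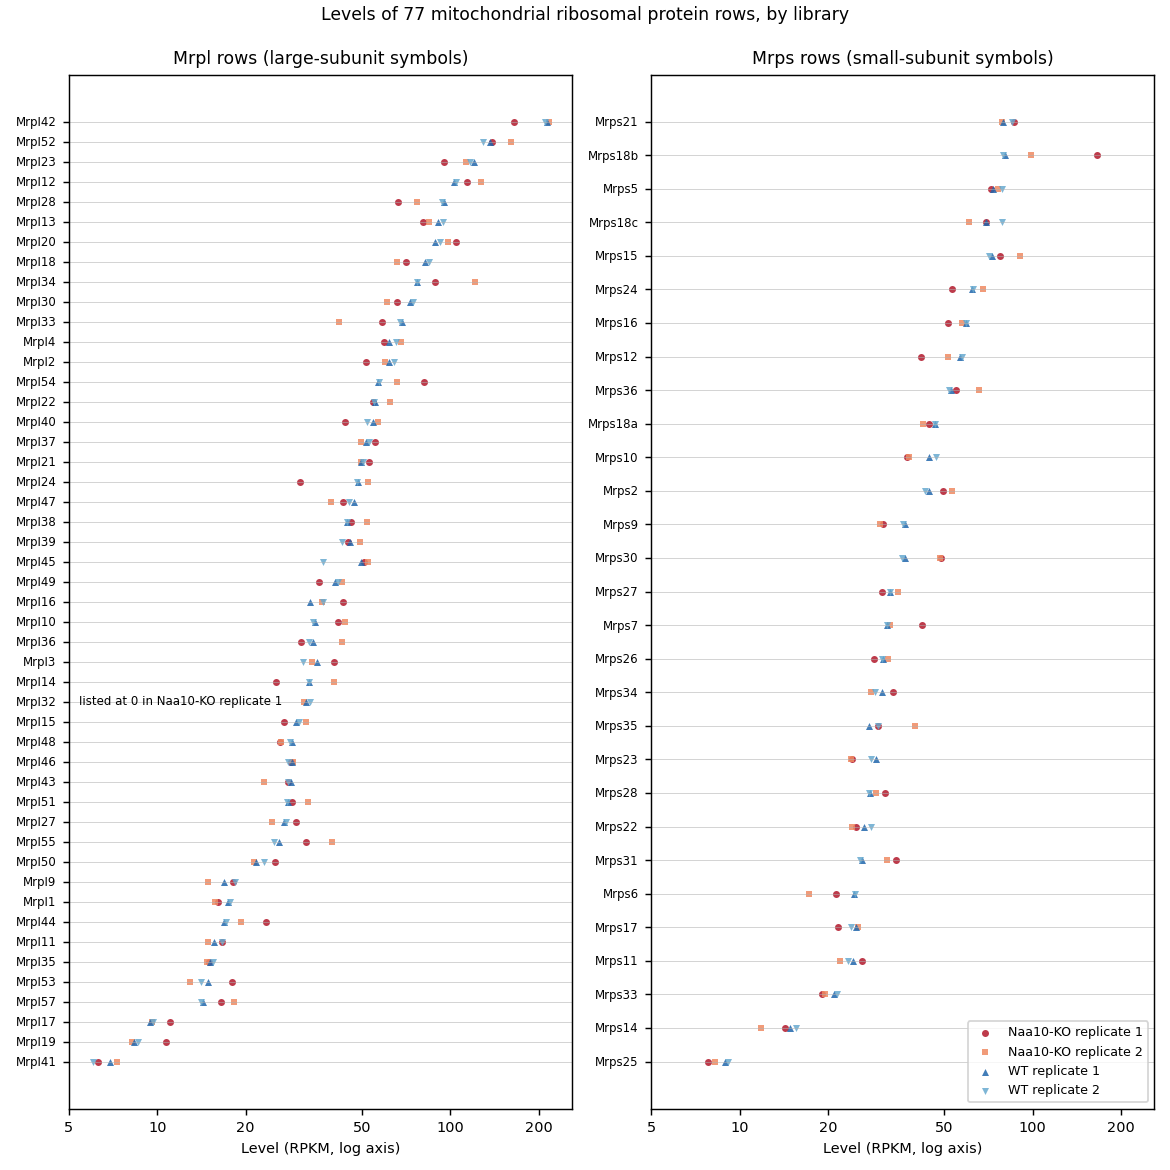
RPKM of the 77 genes (log axis), 1 point per library: Naa10-KO replicates as a circle and a square, WT replicates as triangles, with Mrpl rows on the left and Mrps rows on the right, ordered by mean WT level. The points run from the range of Mrpl41 (6.26 and 7.26 RPKM in Naa10-KO, 6.92 and 6.03 in WT) to that of Mrpl42 (165 and 217 in Naa10-KO, 214 and 209 in WT), and Mrpl32 is listed at 0 in Naa10-KO replicate 1.

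The first question was whether the set as a whole differed between the genotypes. No member passed the threshold of a limma adjusted p under 0.05, where 0.764% of all tested rows did (0.218% higher and 0.546% lower in Naa10-KO). The smallest adjusted p was 0.114, for Mrps30. At an unadjusted limma p under 0.05 there were 11 members (14.3%), 5 higher and 6 lower in Naa10-KO, where 22.1% of all tested rows passed (8.9% higher, 13.2% lower). The median difference on the scale of log2(RPKM + 1) was -0.003 over the members and -0.056 over all tested rows. Summed over the members, the RPKM came to 3527 and 3696 in the Naa10-KO libraries and 3567 and 3566 in the WT libraries, or 0.521% and 0.506% of all RPKM in Naa10-KO and 0.503% and 0.508% in WT. RPKM are shares of a library, so a change in RNA per cell common to all genes would not appear, and in bulk RNA fewer cells of a type and less RNA per cell cannot be told apart.

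The intervals bound the members' differences. For 49 of the 77 genes (63.6%) the whole 95% confidence interval lay within 0.5 of 0 on the log2 scale, against 32.1% of all tested rows, and for 74 (96.1%) it lay within 1, against 79.9%. The share within 0.5 is not particular to the members: it was 78.8% for cytosolic ribosomal proteins and 55.1% for nuclear-encoded subunits of the respiratory chain and ATP synthase. The median absolute difference between the genotypes was 0.15 over the members and 0.22 over all tested rows. Within the genotypes, the median absolute difference was 0.19 between the Naa10-KO libraries and 0.03 between the WT libraries, where all tested rows gave 0.25 between the Naa10-KO libraries and 0.05 between the WT libraries. The median gap was thus wider between the Naa10-KO libraries than between the WT libraries. The difference between the genotypes is one of means of 2 libraries, and those within a genotype are of single libraries, so their sizes cannot be compared directly. The count of calls depended on the libraries in the fit. With Naa10-KO replicate 1 left out, 30 members passed and with replicate 2 left out 41 did, each time with the lone Naa10-KO library assumed to vary as little as the WT pair, and with either WT library left out 0 passed. Permuting 2 libraries against 2 cannot give an exact two-sided p below 0.333, so no member was given one.

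Each Naa10-KO library was then set against both WT libraries. Naa10-KO replicate 1 lay above both for 34 members, below both for 38 and between them for 5, or 44.2%, 49.4% and 6.49%, where all tested rows gave 38.3%, 54.6% and 7.09%. Naa10-KO replicate 2 lay above both for 37, below both for 36 and between them for 4, or 48.1%, 46.8% and 5.19%, where all tested rows gave 41.8%, 48.3% and 9.92%. The members' median difference from the WT mean was -0.02 for replicate 1 and 0.03 for replicate 2, against -0.08 and -0.02 over all tested rows. Both comparisons share the WT libraries. The groups did not overlap for 45 members (58.4%), with 21 higher and 24 lower in Naa10-KO, where 59.3% of all tested rows did not overlap, 24.4% higher and 34.9% lower. The members' shares were thus near those of the whole table, with a split between higher and lower that was more even.

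**Figure D2:**
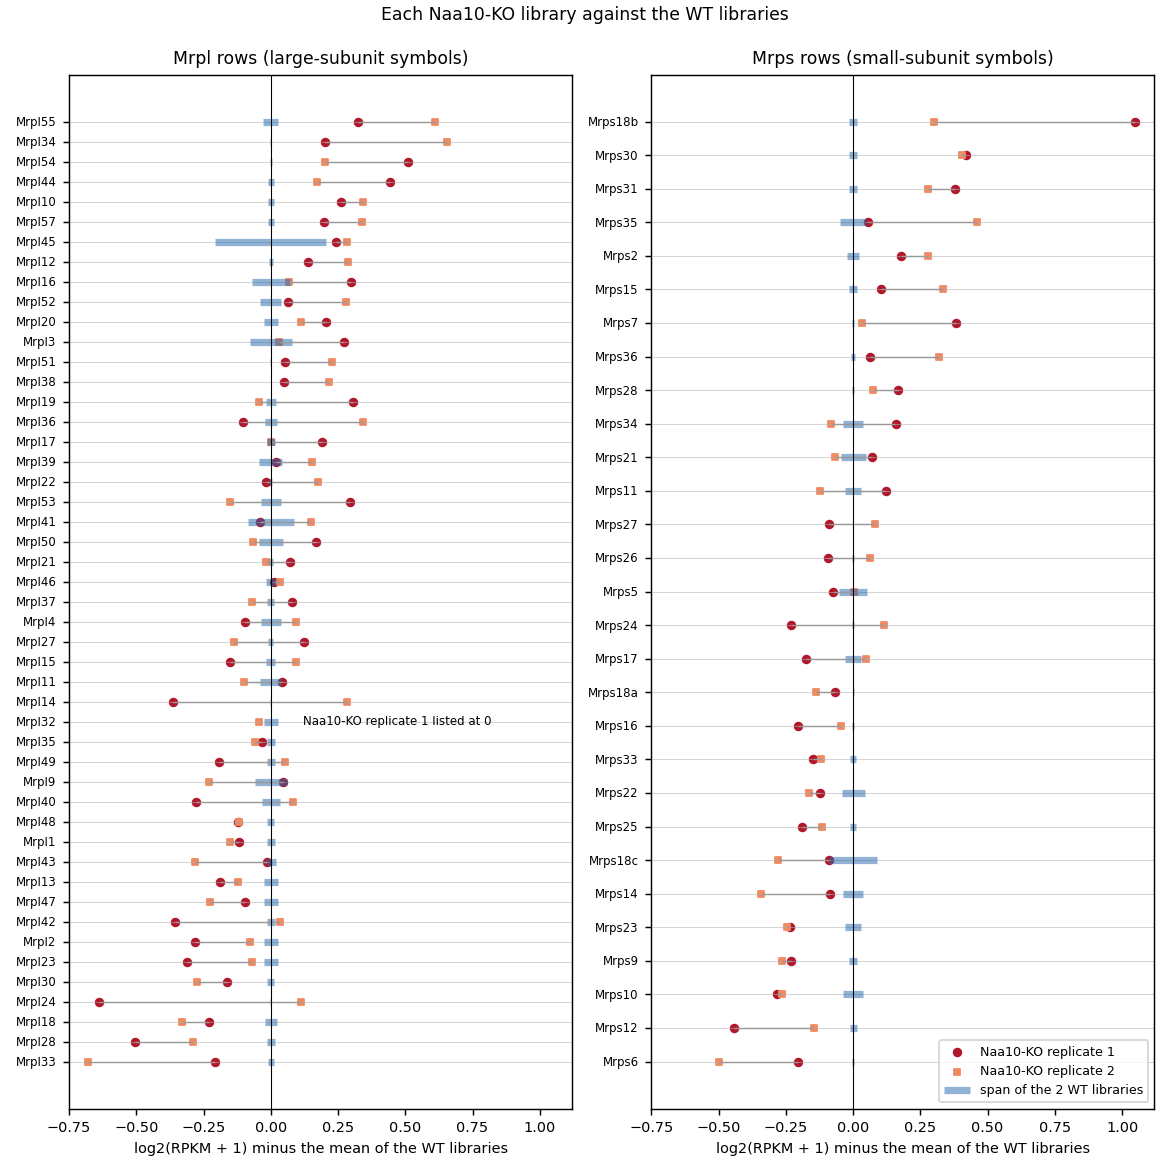
Difference of each Naa10-KO library from the mean of the WT libraries, in log2(RPKM + 1), for each gene: a circle for replicate 1 and a square for replicate 2, with a bar for the span of both WT libraries around 0. Genes are ordered by their mean difference (Mrpl32 by replicate 2 alone), from Mrps18b (replicates at 1.05 and 0.30) and Mrpl55 (0.32 and 0.61) at the top to Mrpl33 (-0.21 and -0.68) and Mrps6 (-0.20 and -0.50) at the bottom.

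Large and small subunit were compared next. The median difference was 0.01 over the 48 Mrpl genes and -0.03 over the 29 Mrps genes, so the large exceeded the small subunit by 0.05 on the log2 scale. Taken for each Naa10-KO library by itself, the gap came to 0.10 for replicate 1 and to 0.08 for replicate 2. The SD between these 2 values was 0.0169, which covers the spread of the Naa10-KO libraries alone, since both values share the WT libraries. No test was made of the gap. Of the Mrpl genes, 12 (25.0%) lay higher and 12 (25.0%) lower in both Naa10-KO libraries, and 5 (10.4%) passed at an unadjusted limma p under 0.05 (2 higher, 3 lower). Of the Mrps genes, 9 (31.0%) lay higher and 12 (41.4%) lower, and 6 (20.7%) passed at an unadjusted p (3 higher, 3 lower). Over all tested rows the shares were 24.4% higher, 34.9% lower and 22.1% at an unadjusted p. Summed RPKM of the Mrpl genes was 2255 and 2458 in Naa10-KO and 2370 and 2353 in WT, and that of the Mrps genes 1272 and 1238 in Naa10-KO and 1196 and 1213 in WT. The ratio of the sums was 1.77 and 1.99 in the Naa10-KO libraries, against 1.98 and 1.94 in the WT libraries, so that only Naa10-KO replicate 1 stood apart. That library had Mrpl32 listed at 0 and Mrps18b at 166 RPKM.

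Symbols and structure do not match in full, since in the mammalian ribosome Mrps30 and Mrps18a belong to the large subunit despite their names. With both moved, the sets hold 50 and 27 genes and the gap of the medians stays at 0.05. Leaving out Mrpl32, which is listed at 0 in a library, gives 0.06.

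**Figure D3:**
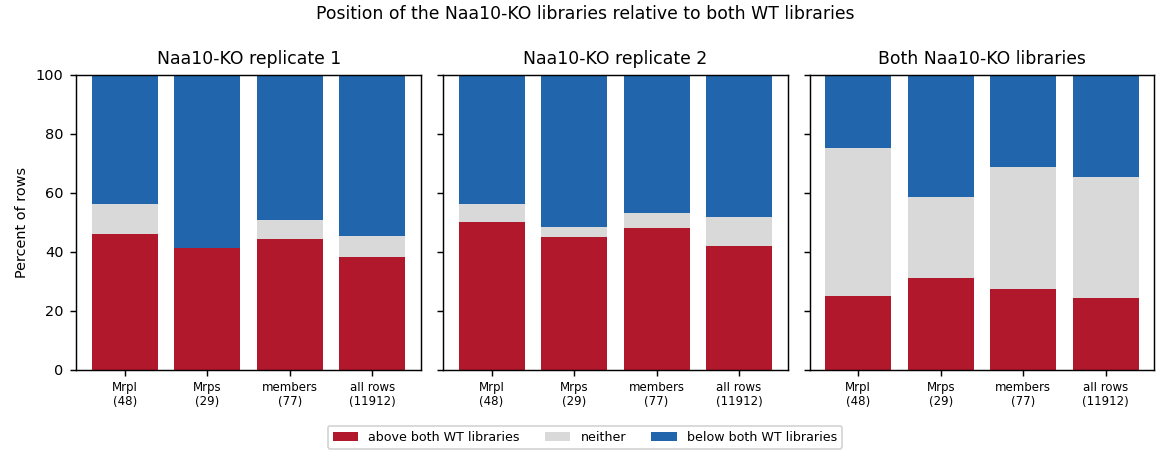
Percent of rows (vertical axis) lying above both WT libraries, below both, or neither, for Naa10-KO replicate 1, for replicate 2 and for both together, over the Mrpl rows, the Mrps rows, all members and all tested rows. The panel for both libraries shows 41.4% of Mrps rows, 31.2% of members and 34.9% of all tested rows below WT.

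Among the large-subunit proteins, Mrpl10 and Mrpl12 of the stalk were higher in both Naa10-KO libraries. Mrpl11, the counterpart of bacterial L11 at the stalk base, was not. It had 16.6 and 14.9 RPKM in Naa10-KO and 15.6 and 16.6 RPKM in WT, with the Naa10-KO libraries on either side of WT. Mrpl10, also at the stalk base, had 41.4 and 43.8 RPKM in Naa10-KO and 34.6 and 34.1 RPKM in WT, a 1.24-fold level (limma log2 difference 0.30, SE 0.08, adjusted p = 0.153). Mrpl12, the counterpart of bacterial L7/L12, which Mrpl10 anchors and which attracts translation factors, had 114 and 127 RPKM in Naa10-KO and 103 and 104 RPKM in WT; it was chosen after its values were seen. Its log2 difference was 0.21 (SE 0.08, limma adjusted p = 0.240). Neither passed, and the groups overlapped for neither gene. These are the genes whose NRF1 matches are printed above. An antisense transcript, Gm11574, overlaps exons of Mrpl10 by 240 bp, and since no strand-specific protocol is stated, reads of the 2 cannot be told apart.

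Mrpl55 and Mrpl54 were the other genes with an Mrpl symbol that were higher in Naa10-KO among the 6 with the smallest p. Mrpl55, the counterpart of bacterial L31, had 32.2 and 39.5 RPKM in Naa10-KO and 26.1 and 25.0 RPKM in WT, 1.40-fold, with a log2 difference of 0.47 (SE 0.13, limma adjusted p = 0.164). Both Naa10-KO libraries lay well above a tight WT pair. Mrpl54, a mitochondria-specific protein, had 81.5 and 65.6 RPKM in Naa10-KO and 56.8 and 57.0 RPKM in WT (limma adjusted p = 0.227), again with no overlap but with a wide gap inside the Naa10-KO pair.

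Mrpl28, Mrpl18 and Mrpl30, all with bacterial counterparts, lay under both WT libraries in each Naa10-KO library. Mrpl28 had 66.2 and 77.1 RPKM in Naa10-KO and 95.3 and 93.4 RPKM in WT, 0.759-fold (limma log2 difference -0.40, SE 0.10, adjusted p = 0.153). Mrpl18, whose bacterial counterpart binds 5S ribosomal RNA, had 70.7 and 65.7 RPKM in Naa10-KO and 81.7 and 84.3 RPKM in WT (limma log2 difference -0.28, SE 0.08, adjusted p = 0.164). Mrpl30 had 65.7 and 60.7 RPKM in Naa10-KO and 73.0 and 74.4 RPKM in WT (limma log2 difference -0.22, adjusted p = 0.220). The groups did not overlap for any of the 3, and none passed. Mrpl33 and Mrpl34, chosen after their values were seen, had larger differences but a wider Naa10-KO pair: Mrpl33 had 58.3 and 41.8 RPKM in Naa10-KO and 68.1 and 67.1 RPKM in WT (limma log2 difference -0.44, SE 0.18, adjusted p = 0.259). Mrpl34, higher in both Naa10-KO libraries, had 88.7 and 122 RPKM in Naa10-KO and 76.9 and 77.1 RPKM in WT (limma log2 difference 0.43, SE 0.17, adjusted p = 0.258). Exons of Mrpl18 share 141 bp with Tcp1 on the opposite strand, a gene measured at 178 and 167 RPKM in Naa10-KO and 171 and 181 RPKM in WT.

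Of all members, Mrps30 came nearest to the threshold. This mitochondria-specific protein of the large subunit had 48.8 and 48.3 RPKM in Naa10-KO and 36.6 and 35.9 RPKM in WT, with means of 48.5 ± 0.305 RPKM in Naa10-KO and 36.2 ± 0.549 RPKM in WT (SD, n = 2 each). It stood at 1.34-fold in Naa10-KO, a log2 difference of 0.41 (SE 0.07, 95% confidence interval 0.22 to 0.61, limma adjusted p = 0.114). Both pairs were tight and lay far apart. Its exons share 623 bp with B430218F22Rik on the opposite strand.

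Among the small-subunit proteins, Mrps31 and Mrps2 lay higher in both Naa10-KO libraries. Mrps31, specific to mitochondria, had 34.1 and 31.7 RPKM in Naa10-KO and 26.2 and 25.7 RPKM in WT (limma log2 difference 0.33, SE 0.08, adjusted p = 0.153). Mrps2, the counterpart of bacterial S2, had 49.6 and 53.1 RPKM in Naa10-KO and 44.3 and 43.0 RPKM in WT (limma log2 difference 0.23, SE 0.08, adjusted p = 0.213). Neither pair of libraries overlapped with the other.

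Mrps10, Mrps9 and Mrps23 lay lower in both. Mrps10 and Mrps9 are counterparts of bacterial proteins of the small subunit's head. Mrps10 had 37.3 and 37.8 RPKM in Naa10-KO and 44.4 and 46.8 RPKM in WT (limma log2 difference -0.27, SE 0.07, adjusted p = 0.164). For Mrps9 the levels were 30.9 and 30.2 RPKM in Naa10-KO and 36.8 and 36.1 RPKM in WT (limma log2 difference -0.25, SE 0.07, adjusted p = 0.182). Mrps23, specific to mitochondria, was measured in a row joined with 2210416O15Rik and Cuedc1, so its own level cannot be separated. The joined row had 24.1 and 23.9 RPKM in Naa10-KO and 29.2 and 28.0 RPKM in WT (limma log2 difference -0.24, SE 0.08, adjusted p = 0.201). For all 3 rows the Naa10-KO libraries nearly coincided and lay below both WT libraries, and none passed.

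Mammals have 3 genes for counterparts of the bacterial protein S18, and of these only Mrps18b lay higher in Naa10-KO. Mrps18b had 166 and 98.6 RPKM in Naa10-KO and 80.7 and 79.1 RPKM in WT, the largest log2 difference above 0 of any member at 0.67 (SE 0.27, limma adjusted p = 0.259). Both Naa10-KO libraries were higher, but replicate 1 lay farther from replicate 2 than replicate 2 from WT. Mrps18a, the copy in the large subunit, had 44.4 and 42.2 RPKM in Naa10-KO and 46.6 and 46.5 RPKM in WT, slightly lower in both Naa10-KO libraries (limma adjusted p = 0.458). Mrps18c had 69.4 and 60.6 RPKM in Naa10-KO and 69.4 and 78.5 RPKM in WT (limma adjusted p = 0.400), with Naa10-KO replicate 1 just under WT replicate 1. Mrps18a and Mrps18c were chosen after their values were seen. Exons of Mrps18b share 638 bp with the antisense gene Gm16279.

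Mrps18b was one of 4 genes with the widest gap between the Naa10-KO libraries, and in 2 of the others the Naa10-KO libraries lay on either side of WT. Mrpl24, the counterpart of bacterial L24, had 30.6 and 52.2 RPKM in Naa10-KO and 48.3 and 48.2 RPKM in WT. Mrpl14, the counterpart of bacterial L14, had 25.3 and 40.2 RPKM in Naa10-KO and 32.8 and 32.9 RPKM in WT. For both, replicate 1 was the low library and replicate 2 the high one, while the WT libraries differed by less than 1 RPKM, and the limma adjusted p was 0.598 for Mrpl24 and 0.931 for Mrpl14. Exons of Mrpl24 share 594 bp with Rrnad1 on the opposite strand and those of Mrpl14 share 106 bp with Tmem63b.

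The fourth gene with a wide gap was Mrpl32, whose precursor is known to be cleaved by the m-AAA protease of the inner membrane before it joins the large subunit. It was listed at 0 in Naa10-KO replicate 1 and at 31.7 RPKM in Naa10-KO replicate 2, against 32.1 and 33.3 RPKM in WT. An exact 0 beside a level like WT in the other Naa10-KO library can be a failed estimate, and no fold is given. The protease genes Afg3l2, with 22.6 and 27.9 RPKM in Naa10-KO and 29.9 and 30.6 RPKM in WT, and Spg7, with 17.6 and 17.0 RPKM in Naa10-KO and 18.9 and 19.5 RPKM in WT, did not pass (limma adjusted p = 0.323 and 0.391); both were chosen after their values were seen.

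**Figure D4:**
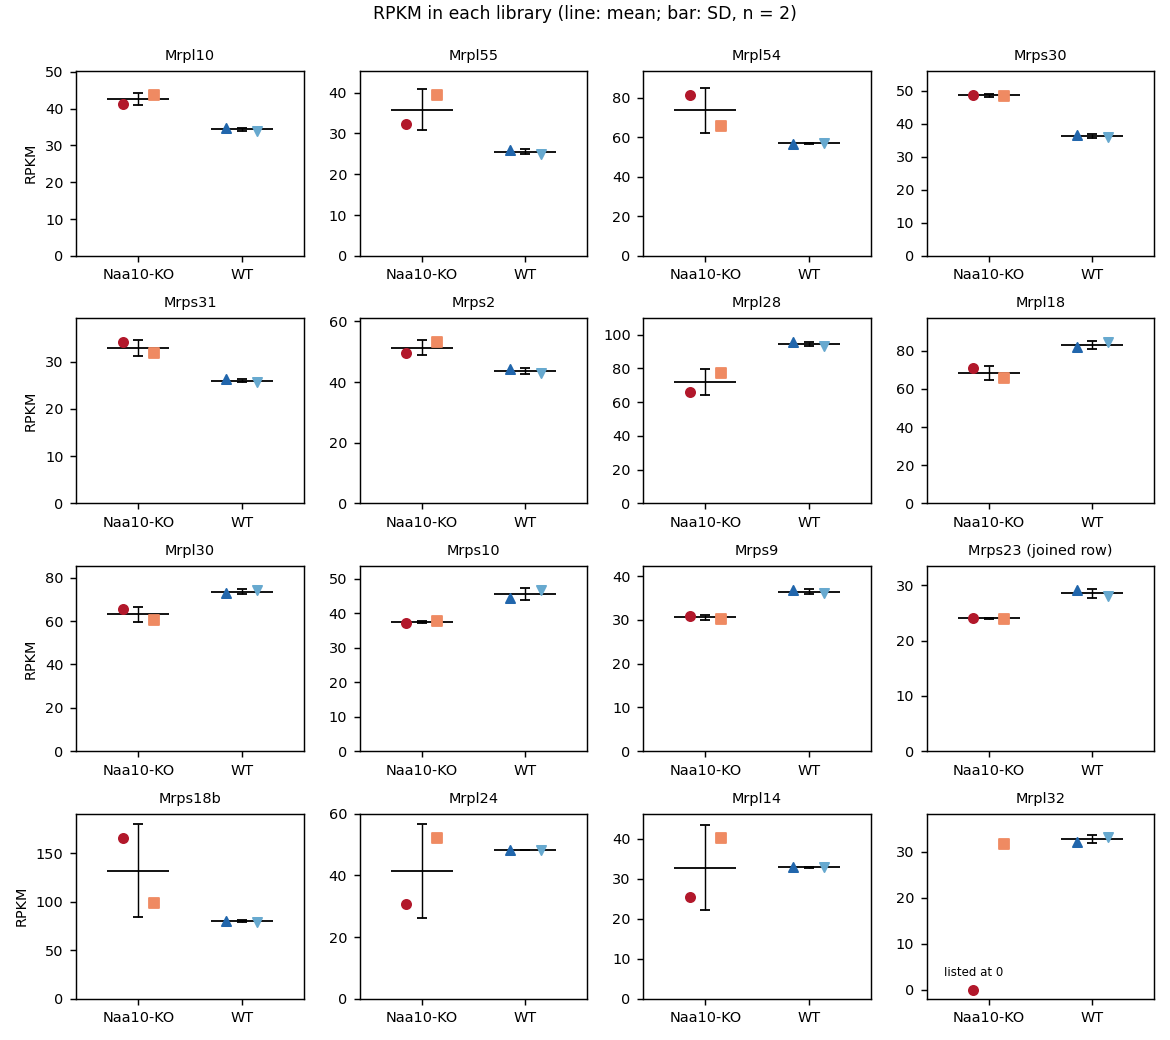
RPKM in each library for 16 genes, with Naa10-KO on the left (replicate 1 as a circle, replicate 2 as a square) and WT on the right (triangles), a line at the mean and bars of 1 SD (n = 2). Mrps30 shows tight and separate pairs (48.8 and 48.3 in Naa10-KO, 36.6 and 35.9 in WT), while Mrps18b, Mrpl24 and Mrpl14 show Naa10-KO libraries far from each other, and Mrpl32 is listed at 0 in replicate 1 and given without a mean there.

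Besides Mrps23, 3 members stood in joined rows, whose values include their neighbours. Mrps6, the counterpart of bacterial S6, was joined with Slc5a3 and had 21.3 and 17.2 RPKM in Naa10-KO and 24.6 and 24.8 RPKM in WT, lower in both Naa10-KO libraries (limma log2 difference -0.35, SE 0.13, adjusted p = 0.234). Mrpl53, joined with Ccdc142, had 17.9 and 12.9 RPKM in Naa10-KO and 14.9 and 14.1 RPKM in WT, and Mrps34, joined with Nme3, had 33.5 and 28.1 RPKM in Naa10-KO and 30.6 and 29.1 RPKM in WT. In both of these rows Naa10-KO replicate 1 lay above and replicate 2 below both WT libraries.

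The members were also divided by descent. The 48 genes with bacterial counterparts had a median log2 difference of -0.04, and the 29 mitochondria-specific ones 0.05. Of the genes with bacterial counterparts, 10 (20.8%) lay higher and 19 (39.6%) lower in both Naa10-KO libraries, where the shares over all tested rows were 24.4% and 34.9%. Of the mitochondria-specific genes, 11 (37.9%) lay higher and 5 (17.2%) lower. By symbol, the 18 mitochondria-specific Mrpl genes gave 7 higher and 1 lower, and the 11 Mrps genes, Mrps30 of the large subunit among them, gave 4 higher and 4 lower. These are counts of rows whose single differences did not pass, and the 2 classes were not tested against each other.

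Proteins of the same particle with other symbols had 6 tested rows, with a median log2 difference of -0.08. Of these rows 0 passed the limma threshold and 3 had an unadjusted p under 0.05, where 22.1% of all tested rows did. In this list 2 rows lay higher and 2 lower in both Naa10-KO libraries, where all tested rows gave 24.4% higher and 34.9% lower. Aurkaip1, a small-subunit protein, had 113 and 111 RPKM in Naa10-KO and 97.1 and 96.2 RPKM in WT (limma adjusted p = 0.182). Ict1, a peptidyl-tRNA hydrolase built into the large subunit, had 40.1 and 35.8 RPKM in Naa10-KO and 29.8 and 31.7 RPKM in WT (limma adjusted p = 0.206). Both lay higher in both Naa10-KO libraries. Dap3, a GTP-binding protein of the small subunit, was lower, with 15.6 and 15.3 RPKM in Naa10-KO and 18.7 and 18.3 RPKM in WT (limma adjusted p = 0.214; chosen after its values were seen).

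Genes that act with the ribosome were read in lists, and apart from 1 cytosolic ribosomal protein none of their rows passed. The counts below stand against 24.4% of all tested rows higher and 34.9% lower in both Naa10-KO libraries, and 22.1% at an unadjusted limma p under 0.05. Beyond translation factors proper, the list under that name (18 rows) held Tmem70, Lrpprc, Slirp, Mtg1 and Mtg2. Its median log2 difference was -0.17, with 1 row higher (5.56%), 11 lower (61.1%) and 2 at an unadjusted p (11.1%). Guf1, whose bacterial counterpart LepA can move the ribosome backwards, had 3.38 and 3.95 RPKM in Naa10-KO and 5.60 and 5.99 RPKM in WT, and the initiation factor Mtif2 had 4.47 and 6.05 RPKM in Naa10-KO and 8.89 and 8.43 RPKM in WT (limma adjusted p = 0.144 and 0.158). For both of these low-level genes the Naa10-KO libraries lay under WT. Factors of ribosome assembly (24 rows) had a median of -0.05, with 3 higher (12.5%), 6 lower (25.0%) and 3 at an unadjusted p (12.5%). The helicase Ddx28 had 7.46 and 7.27 RPKM in Naa10-KO and 4.57 and 4.46 RPKM in WT, and Ngrn had 7.11 and 6.92 RPKM in Naa10-KO and 10.2 and 10.2 RPKM in WT (limma adjusted p = 0.115 and 0.130).

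The list of mitochondrial tRNA synthetases also named Gars and Kars, not specific to mitochondria, and Qrsl1, Gatb, Gatc and Pet112, not synthetases. Its 20 tested rows had a median of -0.16, with 5 higher (25.0%), 11 lower (55.0%) and 6 of the 20 at an unadjusted p. Lars2, which charges mitochondrial leucine tRNA, had 42.5 and 29.8 RPKM in Naa10-KO and 106 and 108 RPKM in WT (limma log2 difference -1.56, SE 0.19, adjusted p = 0.0863), and Hars2, its counterpart for histidine, had 3.40 and 2.81 RPKM in Naa10-KO and 5.45 and 5.69 RPKM in WT (limma adjusted p = 0.125). Import genes (24 rows) had a median of -0.14, with 4 higher (16.7%), 16 lower (66.7%) and 2 at an unadjusted p (8.33%). Tomm5 of the outer-membrane translocase had 92.3 and 97.1 RPKM in Naa10-KO and 124 and 122 RPKM in WT, and Timm44 of the inner-membrane import motor had 23.0 and 27.1 RPKM in Naa10-KO and 31.2 and 31.5 RPKM in WT (limma adjusted p = 0.118 and 0.218).

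Nuclear-encoded subunits of the respiratory chain (78 rows), with which the products of mitochondrial translation assemble, formed a list that also held ATP synthase subunits. Its median was -0.13, with 14 higher (17.9%), 37 lower (47.4%) and 17 at an unadjusted p (21.8%). Atp5j had 143 and 132 RPKM in Naa10-KO and 205 and 203 RPKM in WT, and Cox7a2 had 110.0 and 109 RPKM in Naa10-KO and 152 and 152 RPKM in WT (limma adjusted p = 0.0890 and 0.0896). The list of transcription factors and regulators (13 rows) had a median of 0.01, with 6 higher (46.2%), 5 lower (38.5%) and 7 at an unadjusted p (53.8%). Myc, which acts on many genes of ribosomes and mitochondria, had 45.9 and 41.0 RPKM in Naa10-KO and 21.4 and 21.3 RPKM in WT, and Pprc1, a coactivator that works with NRF1, had 91.6 and 84.6 RPKM in Naa10-KO and 60.6 and 59.2 RPKM in WT (limma adjusted p = 0.0540 and 0.0964).

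Cytosolic ribosomal proteins (85 rows), a family with many pseudogene copies, had a median of -0.01, with 27 higher (31.8%), 28 lower (32.9%) and 18 at an unadjusted p (21.2%). Of these Rps4l alone passed, with 611 and 625 RPKM in Naa10-KO and 363 and 359 RPKM in WT (limma log2 difference 0.78, SE 0.06, adjusted p = 0.0418), a call lost with another filter, without the trend and with a replicate block. Rps15a had 41.7 and 40.7 RPKM in Naa10-KO and 57.7 and 60.7 RPKM in WT (limma adjusted p = 0.0974). The medians of the lists were not tested against each other or against the members.

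**Figure D5:**
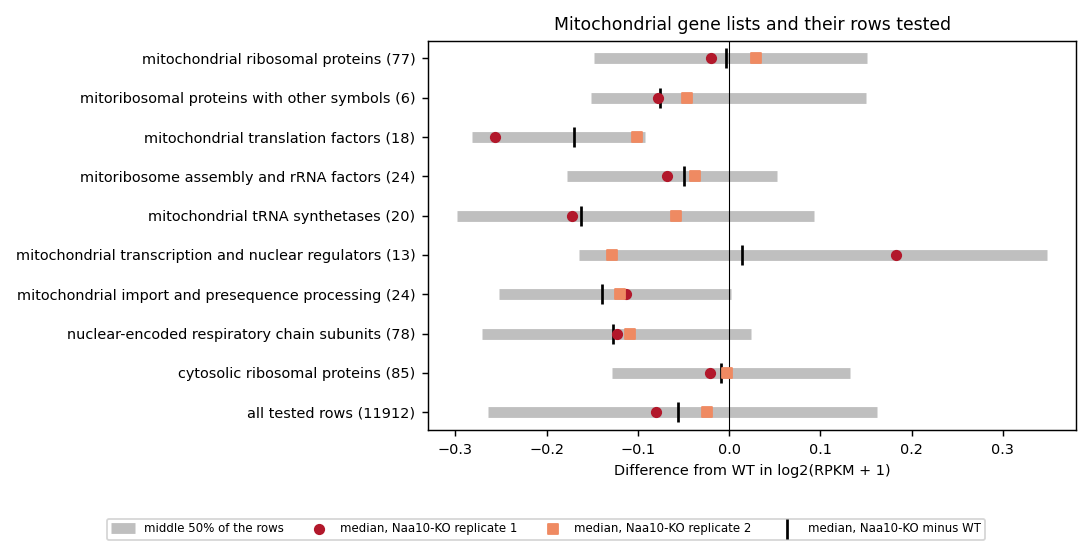
Difference from WT in log2(RPKM + 1) for the members, the lists and all tested rows: circles and squares give the median of Naa10-KO replicates 1 and 2, black ticks the median of Naa10-KO minus WT, and grey bars the middle 50% of the rows. The members' median lies at -0.003 and that of all tested rows at -0.056, with translation factors at -0.17 and tRNA synthetases at -0.16 farther to the left.

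The row that joins Naa10 with its neighbour Renbp had 28.9 and 34.4 RPKM in Naa10-KO and 105 and 106 RPKM in WT (limma log2 difference -1.71, SE 0.11, adjusted p = 0.0342; 0.0801 with rows at 0 and small RNA rows left out), in the direction of the labels. Which stretch of Naa10 the knockout removes is not stated in the labels. Relative to WT replicate 1, the sequencing depth read from the steps of short rows was 1.46 and 1.68 in Naa10-KO and 1.02 in WT replicate 2, and absolute depth is not known. The counts of markers below stand against 24.4% of all tested rows higher and 34.9% lower in both Naa10-KO libraries. All 10 pluripotency markers were above 0 in every library and summed to 4199 and 5082 RPKM in Naa10-KO and 4952 and 5036 RPKM in WT, with 3 higher and 1 lower in both Naa10-KO libraries. The 14 fibroblast markers, which feeders or differentiating cells would bring, summed to 844 and 423 RPKM in Naa10-KO and 404 and 421 RPKM in WT, with 2 higher and 2 lower in both Naa10-KO libraries. The 8 primitive endoderm markers summed to 78.2 and 72.3 RPKM in Naa10-KO and 70.4 and 66.2 RPKM in WT, with 4 higher and 1 lower in both Naa10-KO libraries. A further 5 trophoblast markers summed to 84.1 and 53.1 RPKM in Naa10-KO and 32.3 and 25.4 RPKM in WT, all 5 higher in both Naa10-KO libraries. None of these markers was at 0. Naa10-KO replicate 1, the library with the highest sums of fibroblast and trophoblast markers, is also the one with the outlying values of Mrps18b, Mrpl24 and Mrpl42, and their part in those values was not tested.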

How the data were processed

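Per the file headers, the 4 deposited tables hold RPKM values, 1 library each. The submitters' processing notes name mm9 as the build, and Cufflinks and bedtools, without versions, among the tools; aligner and annotation: not given in the sources used here. In every table the authors deposited the same 14099 named rows, 404 of which join several symbols, and 323 are at 0 in at least 1 library.

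A row was tested if 2 or more libraries reached 1 RPKM, which left 11912. The test was limma's (version 3.58.1, R 4.3.3), two-sided and without covariates, on RPKM plus 1 in log2, with the prior variance following the mean, and with Benjamini-Hochberg adjustment over all tested rows and a threshold of 0.05. The fit had 2 residual degrees of freedom. Fold changes are ratios of mean RPKM, and differences on the log2(RPKM + 1) scale understate changes of low genes. The script was first tested on simulated data. Python 3.11.15 and pandas 2.3.3 served for the tables.

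Depth per library is hidden by RPKM, so no counting interval is given. Members and lists were chosen with earlier results of these data known. The genes named are the 6 Mrpl and 6 Mrps rows with the smallest p, the 3 highest and 3 lowest by WT level, the 4 with the largest difference between the Naa10-KO libraries, members at 0 or in joined rows, and in each other list the called rows and the 2 with the smallest p. Whether equal replicate numbers pair the libraries is not known, and the main fit did not pair them. Promoter sequences and chromosomes are RefSeq's (GRCm38.p6) and overlaps are from GENCODE, not from mm9. Protein sequences were not used here. Alternatives were another pseudocount, other filters, other scalings, no trend, replicate blocks, unjoined rows only, and each library left out.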

Additional observations from a re-analysis of the deposited data

How the results depend on the processing

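Across the settings that kept all 4 libraries, 0 members passed each time, and the smallest adjusted p of any named gene's row among them was 0.102 (limma). Of the 220 values for single genes under these settings, 219 kept their direction and their side of the threshold, leaving Naa10 aside, whose row gave an adjusted p of 0.0801 with rows at 0 and small RNA rows left out. The exception was Mrpl14, at 0.026 with median centring. Median centring moved the median over all tested rows from -0.056 to 0.009 and that of the members to 0.062. The number of all rows called was 40 without a filter, 0 with rows at 0 and small RNA rows left out (smallest adjusted p 0.0592, 2626 rows at an unadjusted p under 0.05), 44 with a replicate block and 41 with unjoined, unrepeated symbols alone. Rps4l, the cytosolic ribosomal protein call, was lost under those 4 settings and without the trend, where its list had 0 calls. With unjoined symbols alone, the large subunit exceeded the small by 0.03.

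Whether equal replicate numbers pair the libraries is not known. Deviations of equal numbers correlated at -0.215 over all tested rows and at 0.029 over the members, which cannot settle it with 2 libraries per genotype. Members at an unadjusted p under 0.05 numbered 6 with the replicate block. With the numbers crossed, a block added after the data were seen, there were 7 such members, and 133 rows and 0 members passed.

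With 1 library left out, the fit takes the variance of the lone library from the other pair. All rows called then ranged over 12 to 7081, members called over 0 to 41, members at an unadjusted p over 0 to 46 and members without overlap over 48 to 73. The members' median ranged over -0.020 to 0.030 and large minus small over 0.042 to 0.10. Calls ranged over 0 to 3 for mitoribosomal proteins with other symbols, 0 to 9 for translation factors, 0 to 11 for assembly, 0 to 12 for tRNA synthetases, 0 to 10 for regulators and for import, 0 to 31 for cytosolic ribosomal proteins and 0 to 40 for the respiratory chain. Differences that changed sign ranged over -0.36 to 0.034 for Mrpl42, -0.046 to 0.30 for Mrpl19, -0.64 to 0.11 for Mrpl24, -0.36 to 0.28 for Mrpl14, -0.15 to 0.29 for Mrpl53, -0.083 to 0.16 for Mrps34 and -0.039 to 0.15 for Mrpl41. The cause was not tested for any of these.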

Other observations

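Many mitochondrial ribosomal protein genes start close to another gene on the opposite strand. In RefSeq (GRCm38.p6), 24 of the 68 matched members (35.3%) had such a start within 1000 bp, against 13.1% of protein-coding genes with a tested row and 8.48% of all protein-coding genes. With Mrpl32 left out because it is listed at 0 in a library, 22 of these cases had a tested neighbour. Of these neighbours, 10 were lower and 12 higher in Naa10-KO by their mean difference, with Mrpl46 and Mrps11 each counted for the other. Over all tested rows, 42.7% were higher by this measure.

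One such pair lies within the set, Mrpl46 and Mrps11, a large- and a small-subunit gene whose starts lie 42 bp apart. Mrpl46 had 28.6 and 29.0 RPKM in Naa10-KO and 28.7 and 28.0 RPKM in WT, and Mrps11 had 26.2 and 21.9 RPKM in Naa10-KO and 24.4 and 23.4 RPKM in WT. Both pairs of groups overlapped. Their exons also share 173 bp on opposite strands, so reads there cannot be told apart.

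Other neighbours pair a member with a gene of another function. Ppp1r10, a regulatory subunit of protein phosphatase 1 that starts 756 bp from Mrps18b, had 38.9 and 38.2 RPKM in Naa10-KO and 71.2 and 59.0 RPKM in WT (limma adjusted p = 0.104), lower where Mrps18b was higher. Ndufb5, a subunit of respiratory complex I that starts 308 bp from Mrpl47, had 37.5 and 36.9 RPKM in Naa10-KO and 54.0 and 56.9 RPKM in WT (limma adjusted p = 0.0902), while Mrpl47 had 42.9 and 39.1 RPKM in Naa10-KO and 46.8 and 45.1 RPKM in WT. Mitd1, which starts 66 bp from Mrpl30, had 8.63 and 12.1 RPKM in Naa10-KO and 17.9 and 18.3 RPKM in WT (limma adjusted p = 0.146). Eme1, which starts 48 bp from Mrpl27 and encodes part of a DNA endonuclease, was listed at 0 in both Naa10-KO libraries and at 18.6 and 17.7 RPKM in WT. It alone among the neighbours passed (limma adjusted p = 0.00341), where 0.764% of all tested rows did. A row listed at 0 can be a failed estimate, and with rows at 0 and small RNA rows left out its row was not tested and 0 rows passed. Mrpl27 itself had 29.8 and 24.7 RPKM in Naa10-KO and 27.1 and 27.4 RPKM in WT. Among the neighbours that were higher, Fau, which starts 192 bp from Mrpl49, had 1258 and 1296 RPKM in Naa10-KO and 1104 and 1121 RPKM in WT (limma adjusted p = 0.196). These neighbours were chosen after their values were seen.

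Mrpl23 lies near H19, an imprinted RNA gene of chromosome 7. H19 had 21.9 and 29.9 RPKM in Naa10-KO and 15.4 and 11.8 RPKM in WT (limma log2 difference 0.88, SE 0.22, adjusted p = 0.15; a gene singled out with its values known), higher in both Naa10-KO libraries, where Mrpl23 was lower in both.

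Short transcripts tended to have the higher RPKM among the members. The longest coding transcript had a median of 1316 nt over the 77 genes, from 463 nt for Mrpl52 to 7300 nt. The 24 genes under 1000 nt had a median WT level of 56.0 RPKM and the others 32.7 RPKM. Across the genes, Spearman's rho was -0.44 and Pearson's r of the log2 values -0.49, as a description of genes that share libraries and whose length enters the RPKM itself.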
